A study of Mus musculus with 4 samples.

Results

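A stretch of mouse chromosome 17 in which peaks were called unusually close together was examined in 2 peak lists from chromatin immunoprecipitated with antibodies to pRb. Members were all peaks whose start lay from 30 to below 31 Mb (build mm9), which gave 86 of the 109740 peaks called in proliferating cells and 369 of the 699290 called in arrested cells. Members were chosen by number of peaks: the megabase was high in both lists, and that number is given here as a description, while peak width, score and the exact placement of the edges were not part of the choice. The flanks used for comparison ran from 25 to 30 Mb and from 31 to 36 Mb and held 436 proliferating and 2563 arrested peaks.

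The cells were C57BL/6 mouse embryonic fibroblasts, primary connective tissue cells taken at E13.5 (embryonic day) and used at passage 4, in which chromatin was fixed with ethylene glycol bissuccinimidylsuccinate and formaldehyde. One list came from cells growing asynchronously in 10% serum and the other from cells arrested for 72 hours in 0.1% serum, with 1 immunoprecipitated library each. Both libraries carry the label KO without a named gene. The sources used here do not say whether these cells made pRb, so peaks are treated as calls, not as binding sites. The 2 inputs, which bear the same label, were not analysed here. With 1 library per growth condition there is no replicate spread and no test between conditions.

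As background, pRb is the retinoblastoma protein, which in its unphosphorylated form holds E2F transcription factors inactive and recruits repressive chromatin enzymes, and the series title concerns the silencing of endogenous retroelements. A peak caller marks places where reads exceed the number it expects, and each call carries a score for that excess. A stretch that cells carry in more copies than the reference, or to which reads from elsewhere are assigned, gives more reads in an immunoprecipitate and in an input alike. The lists hold no reads, so copy number, mapping and recovery by the antibodies cannot be told apart here. Gene positions on mm9 were not used, so the block is given by position. Of 9 genes of chromosome 17 listed from general knowledge, RefSeq for GRCm38.p6 places Mdga1, Zfand3, Btbd9, Glo1, Dnah8, Glp1r and Umodl1 in that order with 0 other protein-coding genes between neighbours. Glo1 encodes glyoxalase 1, which detoxifies methylglyoxal, Dnah8 encodes a heavy chain of axonemal dynein, and Glp1r encodes the receptor for glucagon-like peptide 1. The remaining pair, Daam2 and Kif6, followed 409 protein-coding genes further along. Several inbred mouse strains are known to carry a tandem duplication that includes Glo1. These genes were not placed against the block, because the builds differ, and whether it overlaps that duplication was not tested.

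Read from numbers of peaks in 50 kb bins, the dense stretch had different starts in the 2 lists and nearly the same end. Edges were taken as the pair of 50 kb bin borders between which a single denser segment described the peak starts from 25 to 36 Mb best. In arrested cells the block ran from 30.6 to 31 Mb, a length of 400 kb. In proliferating cells it ran from 30.2 to 31.05 Mb, a length of 850 kb. By this reading the arrested block lay inside the proliferating one, and 400 kb before it were dense in proliferating cells alone. These 2 parts are called the shared zone (30.6 to 31 Mb) and the upstream zone (30.2 to 30.6 Mb). The proliferating start depended on the reading. Single peak starts gave 30.206 Mb, while a run of bins above the 95th percentile of the flanking bins gave 30.55 Mb and peak width 30.576 Mb.

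**Figure D1:**
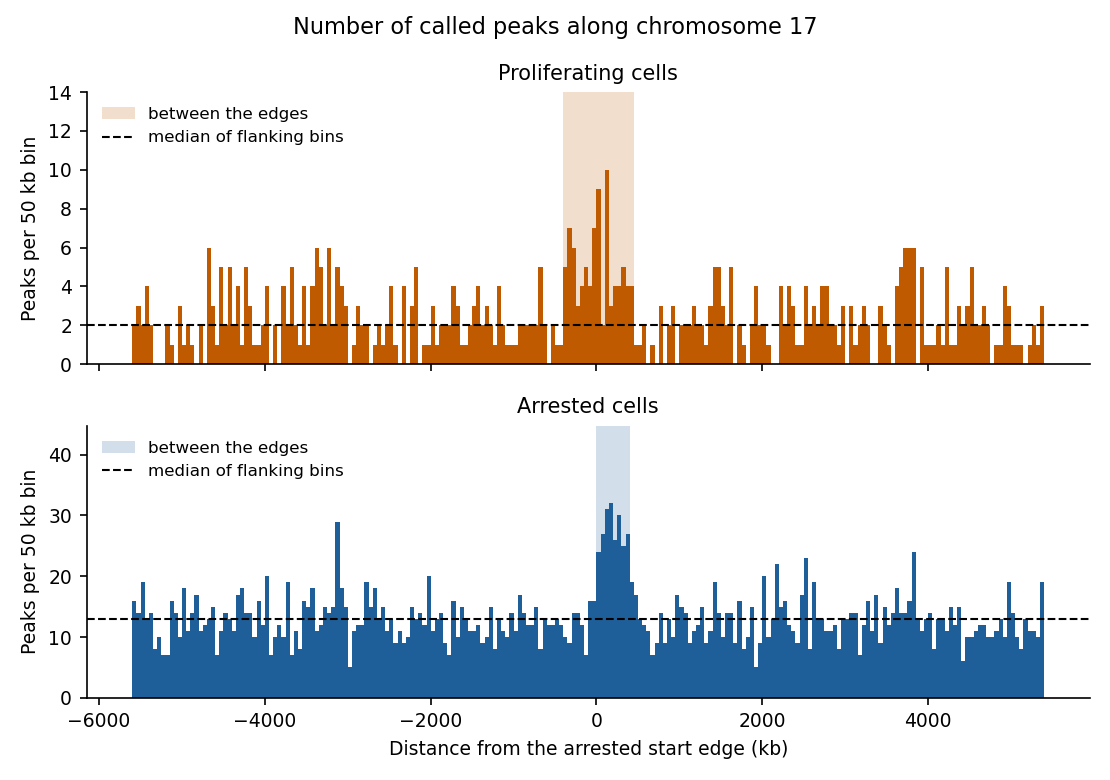
Peaks per 50 kb bin (vertical axis) in proliferating and arrested cells against distance in kb from the arrested start edge, with each list's block shaded and the median of the flanking bins dashed. Arrested bins rise from a flank median of 13 to between 24 and 32 inside the block, and the proliferating block starts 400 kb earlier.

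In arrested cells the 8 bins of the shared zone held 24, 27, 31, 32, 26, 30, 25 and 27 peaks in order along the chromosome. The 200 flanking bins ranged from 5 to 29 with a median of 13. Each bin of the zone lay above the 95th percentile of the flanking bins, which was 19, and 2 flanking bins, from 27.45 Mb with 29 peaks and from 34.4 Mb with 24, reached into the range of the zone. The neighbouring bins held 16 peaks from 30.55 Mb, 19 from 31 Mb and 17 from 31.05 Mb, so the change took about 1 bin at the start and 2 at the end. Of the 8 bins, 3 reached 28 peaks, which is 2 times the autosomal median of 14, where 0.0455% of all autosomal bins did.

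In proliferating cells the bins were thinner and the edges correspondingly less sharp. The 8 bins of the upstream zone held 5, 7, 6, 3, 4, 5, 4 and 7 peaks. Those of the shared zone held 9, 2, 10, 3, 4, 4, 5 and 4. The 200 flanking bins had a median of 2 and a range of 0 to 6, so single bins of the block and of the flanks overlapped widely. Across the 17 bins between the proliferating edges, 14 had at least 4 peaks, 2 times the autosomal median of 2, against 18.0% of all autosomal bins. Just before the block, the 4 bins from 30 to 30.2 Mb held 0, 2, 1 and 1 peaks.

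Density between the edges was 2.17 times that of the flanks in arrested cells (95% interval 1.88 to 2.48), with 555 against 256 peaks per Mb. In proliferating cells it was 2.33 times (1.83 to 2.94), with 101 against 43.4 per Mb. The intervals cover counting error only and treat calls as independent. They do not allow for the choice of the megabase by its number of peaks or for edges placed where the same counts contrast most, so that they exclude 1 is no test. The upstream zone and the shared zone had the same proliferating density, with 41 peaks each and a ratio of 2.36 (1.67 to 3.26). In arrested cells the upstream zone had 98 peaks and a ratio of 0.956 (0.773 to 1.17), so no excess was detectable there. The upstream zone was set by edges fitted to the same counts, so its contrast between the lists was largely built in. Whether the growth states differ in the upstream zone was not tested. The median distance from one peak start to the next was 1302 bp in the arrested shared zone, against 2752 bp in the left flank and 2720 bp in the upstream zone. In proliferating cells it was 5204 bp in the shared zone and 7728 bp in the upstream zone, against 16802 bp in the left flank.

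Peaks of the shared zone were also wider than those around it, in both lists. The median proliferating width there was 337 bp, with quartiles of 234 and 461 bp, against 152 bp in the flanks (quartiles 130 and 185). Of the 41 proliferating peaks, 23 were at least 300 bp wide (56.1%, Wilson 95% interval 41.0 to 70.1), while the flanks had 3 among 432 (0.694%, 0.236 to 2.02). In arrested cells the median was 272 bp (quartiles 168 and 447) against 168 bp in the flanks (152 and 303). There 100 of 222 peaks reached 300 bp (45.0%, 38.6 to 51.6), against 662 of 2563 in the flanks (25.8%, 24.2 to 27.6). Proliferating peaks thus had the longer median in the zone, although arrested peaks had the longer median beside it.

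The upstream zone did not share this width. Its proliferating peaks had a median of 161 bp, and 1 of 41 was at least 300 bp wide (2.44%, interval 0.432 to 12.6). That peak ran from 30598119 to 30598705 (587 bp, score 31.33) and lay at the very end of the zone, next to the arrested start edge. Its arrested peaks had a median of 166.5 bp, and 27 of 98 reached 300 bp. Median width thus differed between the 2 zones of the proliferating block, while the widths themselves overlapped: 8 of 41 peaks of the shared zone were under 200 bp wide, as were 31 of 41 in the upstream zone. The bin from 30.55 Mb, the last of the upstream zone, had a median of 224 bp.

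**Figure D2:**
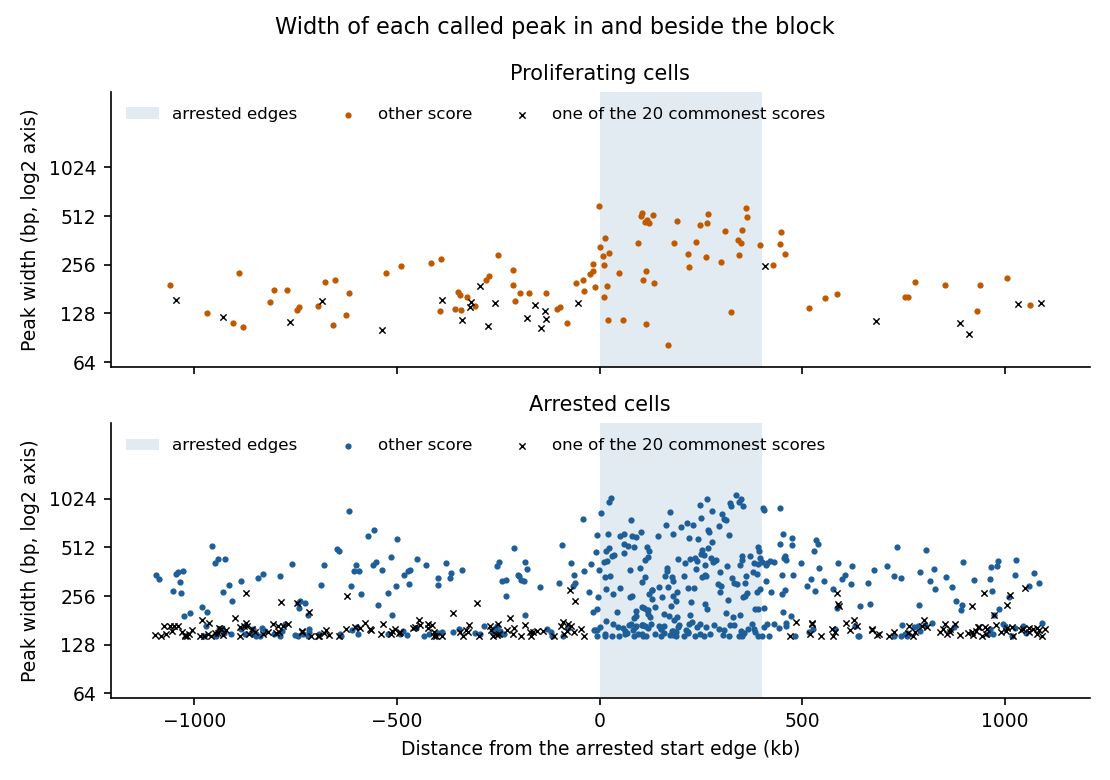
Width of each called peak in bp (log2 axis) against distance in kb from the arrested start edge, with the stretch between the arrested edges shaded and peaks that hold one of their list's 20 commonest scores drawn as crosses. Crosses stop in the shaded stretch in both lists, and the proliferating median width is 337 bp there against 152 bp in the flanks.

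Read from width alone, a measure that the choice of this megabase did not use, the proliferating edges lay at 30.576 and 31.058 Mb, 482 kb apart. This reading was chosen after seeing the data, and takes the run of neighbouring peaks whose log2 width departs most from the rest by least squares. The proliferating start moved by 376 kb against the reading by number and came close to the arrested start. In arrested cells the width reading gave 30.530 and 31.140 Mb, and the reading by lowered score gave 30.573 and 31.060 Mb, 488 kb apart. Lower scores in proliferating cells marked another stretch, 29.098 to 29.914 Mb, so the score did not outline the block there.

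Calls of at least 500 bp were more frequent in the shared zone. Arrested cells had 44 among 222 peaks (19.8%), against 86 of 2563 in the flanks (3.36%) and 3.06% on all autosomes. Proliferating cells had 6 among 41, with 0 of 432 in the flanks (a count of 0 allows up to 0.694%) and 60 among 103832 peaks on all autosomes. The widest arrested peak ran over 1073 bp from 30936929 to 30938001 with a score of 34.31. It was followed by peaks of 1038 bp at 30627828, 1024 bp at 30949115 and 1018 bp at 30865619. Their scores, 43.27, 58.39 and 30.15, lay below the flank median of 95.3. The widest proliferating peak of the zone ran from 30961698 to 30962268 (571 bp, score 37.04), and the next from 30703940 to 30704474 (535 bp, score 42.05); both overlapped arrested peaks. Of the 10 widest arrested peaks, those at 30949115 and 30622715 overlapped a proliferating one, as did 9.01% of all arrested peaks of the zone.

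More and wider calls meant more covered sequence. Arrested peaks covered 77.2 kb of the shared zone, or 19.3%, against 6.01% of the flanks, a ratio of 3.21. Proliferating peaks covered 13.6 kb of it, or 3.41%, against 0.691% of the flanks, a ratio of 4.93. In the upstream zone the proliferating ratio was 2.66 and the arrested one 0.958.

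The calls that made the arrested block dense had low scores. The deposited scores are the authors' values, on a scale that the sources used here do not state, and they are compared within a list only. The arrested median was 46.2 in the shared zone (quartiles 32.8 and 78.0) against 95.3 in the flanks (64.3 and 139), a ratio of 0.485. The upstream zone, at 93.1, was close to the flanks. Among peaks under 200 bp the medians were 53.5 in the shared zone and 115 in the flanks, and among peaks of at least 300 bp they were 45.0 and 55.7. The lower score was thus present in narrow and in wide peaks, and the difference was larger in the narrow ones. In proliferating cells the shared zone had a median of 24.0 and the flanks 24.9, a ratio of 0.967, and most scores lay near the list's minimum of 20.

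**Figure D3:**
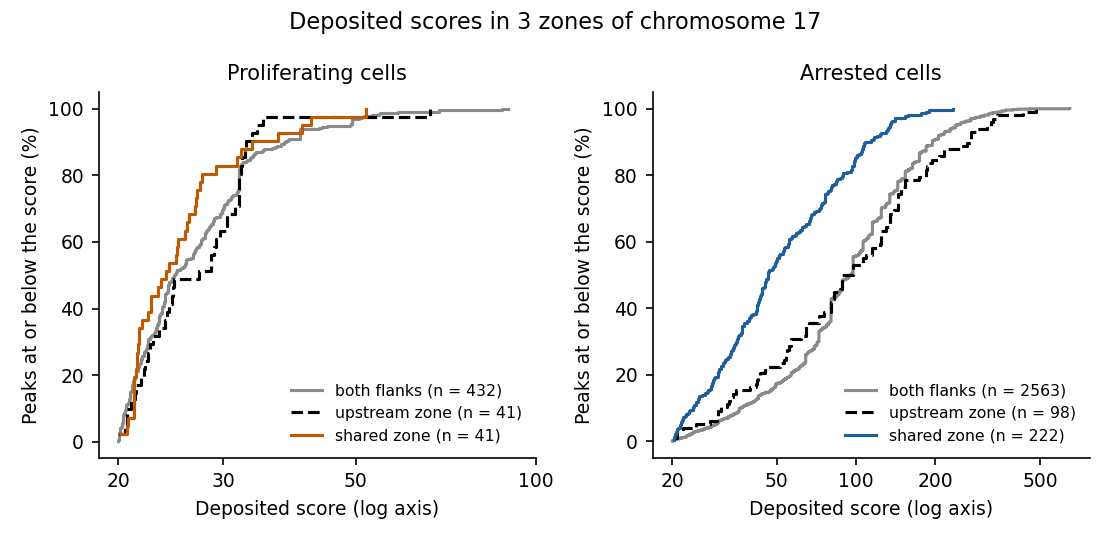
Cumulative share of peaks in percent (vertical axis) at or below each deposited score (log axis) for the flanks, the upstream zone and the shared zone. The arrested shared zone lies left of the other curves, with a median of 46.2 against 95.3 in the flanks, while the arrested upstream zone follows the flanks.

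The density of the arrested block consequently depended on the score at which calls were kept. With a score of at least 50 the shared zone had 101 peaks and a ratio of 1.19 (0.966 to 1.46). At 100 it had 32 peaks and a ratio of 0.705 (0.480 to 1.002), at 150 it had 6 and a ratio of 0.276 (0.101 to 0.605), and at 200 it had 1, with 238 in the flanks and a ratio of 0.105 (0.00265 to 0.591). The zone passed from denser than its flanks to sparser as the limit rose. In the upper 50% of the arrested list by score, the ratio was 0.752. In the upstream zone the arrested ratios were 0.897 at 50, 1.01 at 100, 1.06 at 150 and 1.58 (0.868 to 2.65, 15 peaks) at 200, each with an interval that includes 1. The proliferating ratio of the shared zone was 2.21 (1.304 to 3.53) at a score of 25 and 1.35 (0.532 to 2.86) at 30, where 7 peaks remained. In the upstream zone it was 2.44 (1.48 to 3.83) and 2.89 (1.57 to 4.95) at the same limits. At a score of 40 the order turned, with 1.91 (0.378 to 6.02, 3 peaks) in the shared zone and 0.638 (0.0157 to 3.77, 1 peak) in the upstream zone. The intervals of the 2 zones overlapped at each limit.

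**Figure D4:**
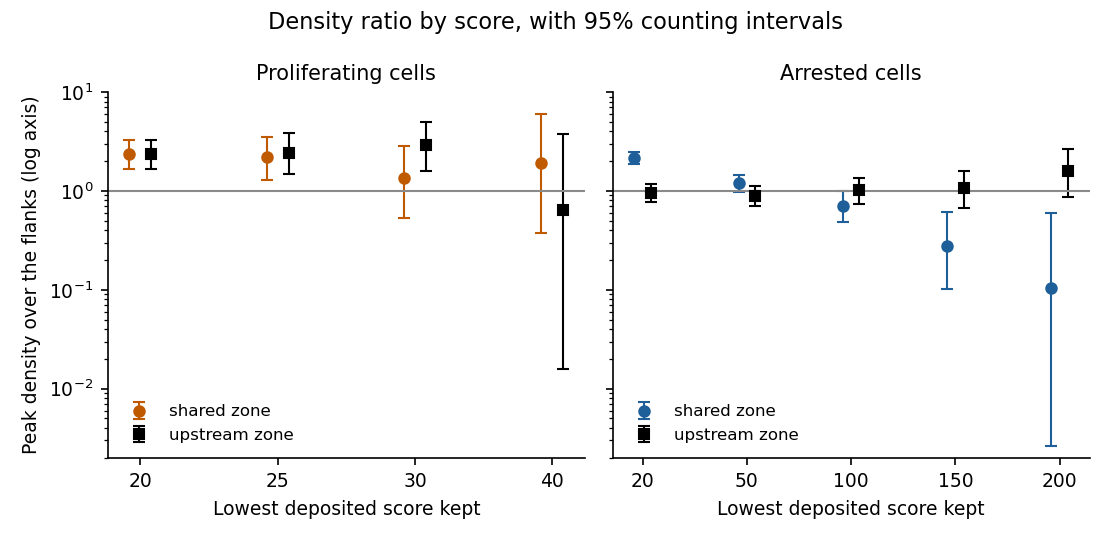
Density of peaks in the shared zone and the upstream zone over that of the flanks (log axis, bars are 95% counting intervals) when only peaks at or above the score on the horizontal axis are kept. The arrested shared zone falls from 2.17 at a score of 20 to 0.105 at 200, and the arrested upstream zone lies between 0.897 and 1.06 up to 150 and at 1.58 at 200.

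The highest arrested scores of the block belonged mostly to narrow peaks. The first, 232.93, was that of a 170 bp peak from 30705364 to 30705533, followed by 189.62 for a 146 bp peak at 30904396 and 184.17 for a 252 bp peak at 30953104. The fourth, 176.89, belonged to an 840 bp peak at 30603078. The fifth, 158.19, belonged to a 192 bp peak at 30770992. None of these 5 overlapped a proliferating peak, but few arrested peaks did: 9.01% in the shared zone and 1.83% on all autosomes. In the flanks, by comparison, scores reached 650. In proliferating cells the highest score of the block, 66.45, belonged to a 224 bp peak at 30575935, in the last bin of the upstream zone. Read from width, the proliferating block began at this peak, so its place in the upstream zone depended on the reading. The next score, 51.89, lay in the shared zone at 30950141 (419 bp). The peaks at 30703940 (42.05), 30837027 (40.56) and 30961698 (37.04) followed, all in the shared zone. Of the 5, those at 30950141, 30703940 and 30961698 were called in arrested cells too, as were 27.9% of all proliferating peaks between the edges.

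Scores that recurred throughout each list were missing from the shared zone. The 20 commonest score values of the arrested list were held by 54.3% of its autosomal peaks and by 44.6% of the flanking ones (1144 of 2563). In the shared zone 0 of 222 arrested peaks had such a score, which allows a share of up to 1.35%. The upstream zone had 38 of 98 (38.8%, interval 29.7 to 48.7). Among arrested peaks under 200 bp the counts were 0 of 83 in the shared zone and 1008 of 1527 in the flanks (66.0%). The shortest width of the list, 144 bp, still occurred there, in 15 peaks. In proliferating cells 0 of 41 peaks of the shared zone held one of that list's 20 commonest scores, which allows up to 7.32%, against 136 of 432 in the flanks (31.5%) and 13 of 41 in the upstream zone (31.7%). These scores went with narrow peaks: the proliferating flanks had 132 of 357 under 200 bp and 4 of 72 from 200 to below 300 bp. Of the 41 peaks of the shared zone, only 8 were under 200 bp. The part of width in the absence of common scores was not tested.

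The stretch without a common score gave another reading of the edges. In arrested cells it reached from 30.563 to 31.070 Mb, 507 kb with 262 consecutive peaks. By number of peaks, the quantity that the megabase was chosen for, this run was the first among 357054 on the autosomes, and the next held 125 peaks over 324 kb on chromosome 4 from 145.608 Mb. It was not the longest in kb: the third by number, with 101 peaks on chromosome 1 from 84.933 Mb, spanned 2630 kb. In proliferating cells the run went from 30.546 to 31.008 Mb, 462 kb with 48 peaks, second by number among 32198 to a run of 51 peaks over 625 kb on chromosome 4 from 145.453 Mb. The third, on chromosome 8, held 47 peaks over 668 kb. Both runs began more than 300 kb after the proliferating start by number of peaks. Within the 11 Mb studied the next arrested run by length was 202 kb from 27.366 Mb, with 79 peaks, and it included the dense flanking bin at 27.45 Mb.

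The limit of the megabase at 31 Mb cut through the wide calls, and that at 30 Mb lay before both blocks. Just inside 30 Mb, the first proliferating member was a 101 bp peak at 30063080 (score 31.82) and the first arrested one a 165 bp peak at 30002392 (43.86). The last peaks outside were at 29981164 (172 bp, 26.99) and 29997810 (398 bp, 30.99). The last members before 31 Mb overlapped each other, at 30995790 (337 bp, 27.63) in proliferating and 30995577 (439 bp, 35.94) in arrested cells. Just beyond lay peaks at 31007841 (252 bp, 20.28) and 31001188 (144 bp, 53.01). From 31 to 31.1 Mb the arrested list had 36 peaks with a median width of 329.5 bp and 2 common scores, at a density 1.41 times that of the flanks (0.986 to 1.96) and a median score of 61.8. The wide calls thus went on past 31 Mb, at a lower density and a higher median score than in the shared zone. The proliferating list had 5 peaks there, a ratio of 1.15 (0.371 to 2.70).

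At the edges found by number of peaks, the first proliferating peak ran from 30205709 to 30205840 (132 bp, score 30.43) and the last from 31048490 to 31048897 (408 bp, 20.46). Outside them the nearest were at 30184215 (261 bp, 47.99) and 31057906 (299 bp, 24.53). The first arrested peak inside its edges ran from 30601949 to 30602113 (165 bp, 50.71), and the nearest before it from 30597453 to 30597825 (373 bp, 21.93).

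The lists coincided more often in the shared zone than beside it. Of its 41 proliferating peaks, 18 overlapped an arrested peak by at least 1 bp (43.9%, interval 29.9 to 59.0), against 49 of 432 in the flanks (11.3%, 8.69 to 14.7) and 4 of 41 in the upstream zone (9.76%, 3.86 to 22.5). Arrested peaks covered 19.3%, 6.01% and 5.76% of these stretches, and proliferating peaks were wider in the shared zone. The part of coverage and width in the overlap was not tested. Of the 222 arrested peaks, 20 (9.01%) overlapped a proliferating one, against 51 of 2563 in the flanks (1.99%).

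For the 20 overlapping pairs, ranks by score were taken within each list. The lists differ in length, so the ranks of 2 partners cannot be compared directly. In each pair the lower rank was the arrested one, but each arrested partner ranked beyond the 109740 places of the proliferating list. That order is therefore no comparison of the partners. The pair with the best lower rank in the 2 lists ran from 30821333 to 30821581 in proliferating cells (score 26.33, rank 44081) and from 30820884 to 30821470 in arrested cells (score 134.78, rank 202270), and shared 138 bp. The highest-ranked proliferating partner, at 30950141 (rank 1649), shared 417 bp with an arrested peak from 30950143 to 30950596 that scored 44.93 and ranked 614724. At 30623233 a proliferating peak of 302 bp lay wholly within an arrested one of 982 bp, and at 30847641 an arrested peak of 148 bp lay wholly within a proliferating one of 454 bp. The smallest overlap was 1 bp, at 30646582. The arrested partners ranked between 202270 and 697214 in a list of 699290, and the proliferating partners between 1649 and 99428 in a list of 109740.

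Against the remaining autosomes, the shared zone had more arrested peaks than each of 6016 other segments of its length. The autosomes were tiled into 400 kb segments, and the zone, which was placed at its own edges rather than on the fixed grid, was set among them. Its 222 arrested peaks ranked 1 of 6017, where the next segment held 208 and the median was 111. Of all segments, 0.0499% had at least 1.5 times that median. The 41 proliferating peaks of the zone ranked 3, with a median of 17. By covered arrested sequence it ranked 2. By number of arrested peaks in the upper 50% of scores it ranked 5767, with 38 against a median of 61. Width and score set the zone apart less in arrested cells. Among 5979 segments with at least 10 arrested peaks it ranked 111 by wide median and 68 by low median score. Among 5582 segments with at least 10 proliferating peaks it ranked 3 by wide median and 2340 by low median score. The 850 kb proliferating block, with 86 peaks and a median of 37, ranked 2 of 2820, where 2.20% of segments reached 1.5 times the median. Number of peaks was what the megabase was chosen for, and edges fitted to it favour the zone and the block over segments on a grid. The ranks by number are therefore a description. Segments are not replicates, and no test was made on these ranks.

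**Figure D5:**
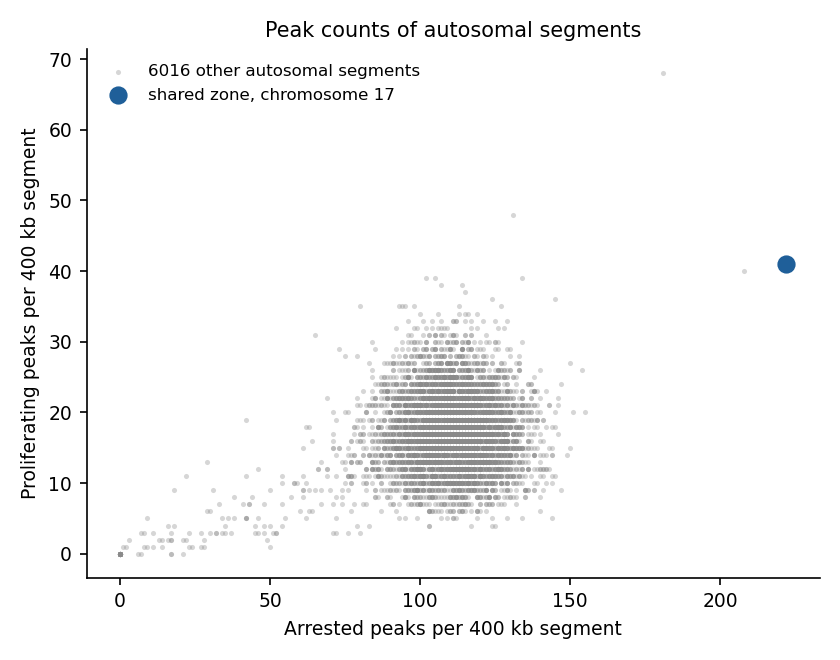
Number of proliferating peaks (vertical axis) against number of arrested peaks (horizontal axis) in 400 kb segments of the autosomes, each point being 1 segment. The shared zone, with 222 arrested and 41 proliferating peaks, lies right of the 6016 other segments.

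The 2 other segments with at least 1.5 times the median number of arrested peaks also had wide arrested peaks and few common scores. One began at 12.8 Mb on chromosome 13 and held 208 arrested and 40 proliferating peaks, with median widths of 326.5 and 187.5 bp and 11.1% of arrested peaks at a common score. The other began at 146.8 Mb on chromosome 4 and held 181 and 68 peaks, with median widths of 383 and 216.5 bp and 4.97% at a common score. Their proliferating peaks were narrower than the 337 bp of the chromosome 17 zone, but wider medians occurred elsewhere. The proliferating median was 592 bp in the segment from 19.6 Mb on chromosome 8 and 348 bp in that from 14.8 Mb on chromosome 5. These segments also had wide arrested peaks (medians 501.5 and 536 bp) and few common arrested scores, but only 42 and 95 arrested peaks. Wide arrested peaks with few common scores were less rare than at least 1.5 times the median number of arrested peaks. Among 6016 other segments, 89 had both at least 1.5 times the median width and at most 50% of the median share of common scores. The 2 traits were not separate, since 92 other segments met the limit on common scores and 89 of them were also wide. In the flanks 0 of 662 arrested peaks of at least 300 bp held a common score. Of 5978 other segments with at least 10 arrested peaks, 3 had a share of 0%, and these held at most 48 arrested peaks. In the proliferating list 29 of 5581 other segments had a share of 0%, with at most 36 peaks.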

How the data were processed

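Peaks came from chromatin immunoprecipitation and sequencing. The submitters' processing notes name Bowtie2, MACS2, HOMER, bedtools and the build mm9; versions, settings and use of the inputs are not stated in the sources used here. The authors deposited 1 list per library with position, name and score and no header. Depth behind a peak is not in the lists, so precision is limited to counting error. Positions are printed 1-based.

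Samples were grouped by title. Members, zones and measures were chosen with earlier results of these data known. Flanks exclude what lies inside a list's edges. Edges maximise a Poisson log-likelihood over 50 kb bins. The ratio of peak densities has an exact conditional interval and shares have Wilson intervals, both at 95%. The limit for a count of 0 is 3 counts. Segment medians needed 10 peaks. Named peaks were the 5 highest scores, the edge peaks, those of at least 500 bp (up to 10) and the overlapping pairs. Code was tested on simulated blocks. Calculations used Python 3.11.15, numpy 2.4.6, pandas 2.3.3, SciPy 1.17.1 and matplotlib 3.10.9. Alternatives were other bins, flanks, score limits, merging and overlaps. No mm9 sequence or annotation was used here.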

Additional observations from a re-analysis of the deposited data

Results flagged for a closer look

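The upstream zone, from 30.2 to 30.6 Mb, is by definition the stretch after the proliferating start edge and before the arrested one. An excess of peaks in the proliferating list only was thus largely built into its choice. Its density was 2.36 times that of the flanks (1.67 to 3.26) in proliferating cells and 0.956 times (0.773 to 1.17) in arrested cells. The difference between the growth states was not tested, since each rests on 1 library.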

How the results depend on the processing

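Of 84 values under alternatives, 64 stayed within 50 kb, within the counting interval or, for ranks, within 1.5 times the reported value, 19 moved and 1 reversed. In the upper 50% of scores the arrested density ratio turned to 0.752, the arrested edges went to 32.75 and 33.25 Mb and the arrested rank to 5767. Merging peaks within 1000 bp gave an arrested ratio of 1.35 and start of 30.75 Mb, since merging joins close peaks. With 25 kb bins the ends were 30.975 (proliferating) and 31.075 Mb (arrested), and by single peak starts the proliferating end was 30.962 Mb. The run of high bins put the proliferating block at 30.55 to 30.75 Mb. Chosen after seeing the data were edges from width (proliferating start 30.576, arrested 30.530 and 31.140 Mb), edges from lower score (proliferating 29.098 and 29.914, arrested end 31.060 Mb), other numbers of common scores, a right flank from 31.1 Mb, and the shared zone for proliferating width, where the ratio to the flanks rose from 1.45 to 2.22. Requiring 50% of the peak raised the arrested overlap ratio from 4.53 to 8.83, and covered bases gave the arrested block rank 2. With the 100 commonest scores the shared zone had 0.901% (arrested) and 7.32% (proliferating), against 62.2% and 62.5% in the flanks. Where no reason is given, the cause was not tested. No paired analysis was possible because each growth condition has 1 immunoprecipitated library, whose title gives no replicate number, and none could be left out. The lists give no reads, so depth could not be set equal.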
